A study of Mus musculus with 4 samples.

Results

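The Il1a and Tnfaip3 viewpoints were compared within undifferentiated mouse embryonic stem cells (ESC), using the 2 ESC libraries out of 4 libraries in the series. They are the libraries titled for Il1a and for Tnfaip3 in ESC, 1 library each. The ESC were of line 46c, grown without feeder cells in serum with the cytokine LIF, and no treatment of ESC is named in the labels. Cells were fixed in 1% formaldehyde, and the chromatin was digested with the enzymes the labels spell HindII and DpnII. The other 2 libraries are macrophage-type cells labelled with the TLR4 agonist KLA: thioglycollate-elicited peritoneal macrophages of C57BL/6J mice for Il1a and the macrophage-like line RAW 264.7 for Tnfaip3. Their values are set beside a result only where stated. The series asked whether macrophage enhancers that already carry a mark in ESC touch their promoters. The assay measures no transcripts, so the cell type of the libraries could not be checked against marker genes. The sources used here do not say whether both ESC libraries came from the same fixed cells.

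Circular chromosome conformation capture (4C-seq) reads out what 1 fragment of the genome, the viewpoint, touches in the nucleus. Fixed chromatin is cut and ligated, so that fragments that lay close together in space become joined, and the partners of the viewpoint are amplified by inverse PCR and sequenced. Along a chromosome, contact is usually highest beside the viewpoint and declines with distance, because a chromatin fibre meets its own near neighbours most often. Loops, domain borders and uneven cutting appear as departures from this decline. Il1a encodes interleukin 1 alpha, an inflammatory cytokine, and lies beside Il1b, which encodes the related cytokine interleukin 1 beta. Tnfaip3 encodes A20, a ubiquitin-editing enzyme that restrains NF-κB signalling. Both genes are best known from the inflammatory response of macrophages, so ESC show these loci in cells that are not macrophages.

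In RefSeq's annotation of GRCm38.p6 the loci lie on different chromosomes. On chromosome 2 the protein-coding genes run in the order Slc20a1, a phosphate transporter, Ckap2l, a mitotic spindle protein, Il1a, Il1b, F830045P16Rik and Sirpa, a receptor of myeloid cells. On chromosome 10 the order is Perp, a p53 target, Tnfaip3, Olig3, a transcription factor of the nervous system, Ifngr1, the interferon gamma receptor, and Il22ra2 and Il20ra, receptors of the interleukin 10 family of cytokines. The profiles are in mm9 coordinates, another build, so only this order was used and no window was assigned to a gene or promoter. Positions are 1000 bp apart. The Il1a profile runs from 128153157 to 130153157 with its middle at 129153157, and the Tnfaip3 profile from 18207921 to 20207921 with its middle at 19207921. The files name neither the viewpoint fragment nor a chromosome, so every distance below is a distance from the middle of the profile, negative towards lower coordinates.

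The deposited contact signal has no common unit, since the top window of every library is set to 1. Each value was therefore divided by the median of its own library at 500 to 900 kb, called the far level, which was 0.102 of the highest window at Il1a and 0.136 at Tnfaip3 in windows of 10 kb. A scaled contact of 2 means contact at 2 times the far level. The main window was 10 kb, and neighbouring windows overlap, so windows are not replicates. There was 1 library a side, so no difference between the loci has a replicate error and no p-value was computed. Quartiles below are the spread over windows along a locus. Of 1999 windows of 2 kb, 6.65% held no signal at Il1a and 7.40% at Tnfaip3. Windows at 0 were treated as holding no fragment end and left out. In windows of 10 kb they numbered 2 at Il1a, at 24 and 25 kb, and 3 at Tnfaip3, at 52 to 54 kb.

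**Figure D1:**
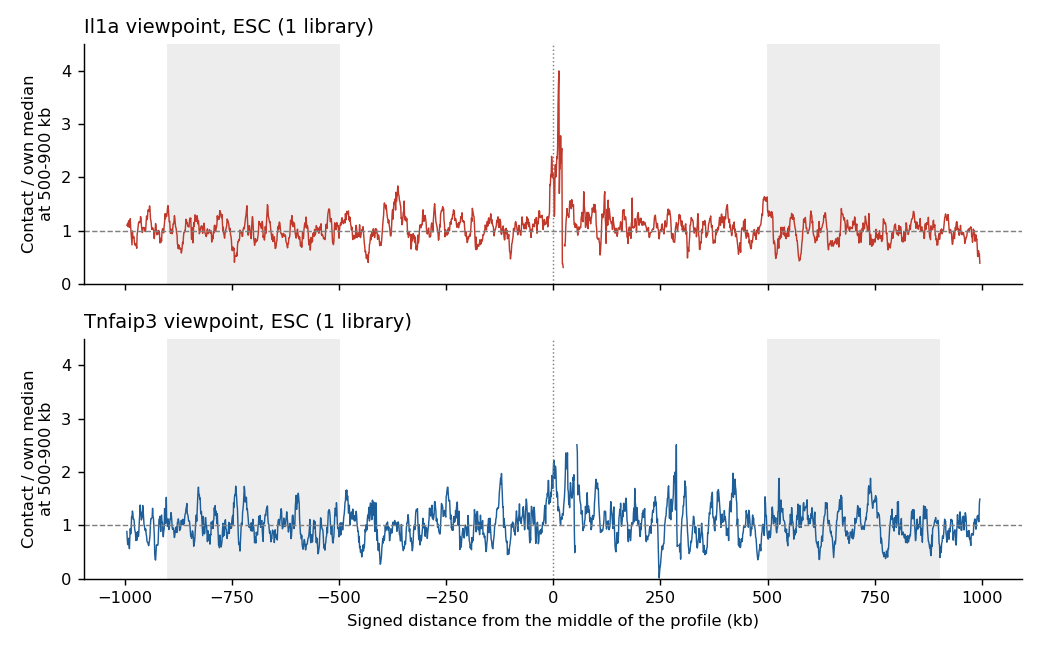
Contact in windows of 10 kb, divided by the own median at 500 to 900 kb (grey bands), against signed distance (kb) from the profile centre, for the Il1a viewpoint (top) and the Tnfaip3 viewpoint (bottom), 1 ESC library each. The dashed line marks the far level of 1; the highest Il1a window reaches 4.00 at 13 kb, and the highest Tnfaip3 windows reach 2.51 at 55 and 287 kb.

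In ESC both loci showed raised contact close to the middle of the profile and medians close to the far level beyond 100 kb, and both declines were shallow. Within 10 kb of the middle, the median scaled contact was 2.03 at Il1a (quartiles 1.88 and 2.21, 19 windows) and 1.73 at Tnfaip3 (quartiles 1.58 and 1.99, 19 windows). The quartile ranges of the 2 loci overlap. At 10 to 25 kb the medians were 1.23 at Il1a (quartiles 1.12 and 2.26) and 1.28 at Tnfaip3 (quartiles 1.14 and 1.4). At 25 to 50 kb they were 1.251 and 1.302, with quartiles of 1.13 and 1.36 at Il1a and of 0.932 and 1.67 at Tnfaip3. From 50 kb outwards the medians of the loci lay within a few percent of each other. They were 1.11 and 1.15 at 50 to 100 kb, 1.06 and 1.03 at 100 to 200 kb, and 1.06 and 1.01 at 200 to 500 kb, Il1a first. The widest gap between the medians of Il1a and Tnfaip3 was in the innermost 10 kb, at a log2 ratio of 0.23, and its direction depended on window width.

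**Figure D2:**
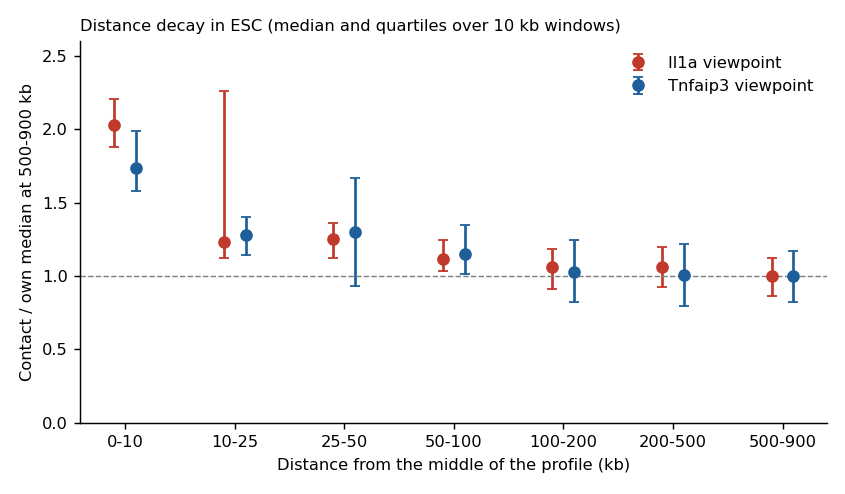
Scaled contact by distance class in kb from the middle of the profile, both sides pooled. Points are medians over windows of 10 kb and bars the quartiles along 1 ESC library per viewpoint, not replicate error; the medians are 2.03 at Il1a and 1.73 at Tnfaip3 within 10 kb, and 1.06 and 1.01 at 200 to 500 kb.

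The individual windows show how differently the 2 loci reach these medians. At Il1a, scaled contact was 1.29 at -10 kb, 2.02 at -5 kb, 2.03 at the middle, 2.24 at 5 kb and 2.56 at 10 kb. It reached 4.00 at 13 kb, the highest 10 kb window of the profile, and was still 2.54 at 20 kb. The high stretch of the Il1a profile therefore covered the middle and reached about 20 kb to its higher-coordinate side, with a dip to 1.27 at 2 kb. At Tnfaip3, scaled contact was 1.4 at -10 kb, 1.54 at -5 kb, 2.06 at the middle, 2.11 at 5 kb and 1.57 at 10 kb. It had dropped to 1.11 at 20 kb, then rose again, with a median of 1.68 over the 21 windows from 26 to 46 kb (lowest 1.33, highest 2.36 at 33 kb). In the same stretch from 26 to 46 kb, the Il1a windows had a median of 1.34 (lowest 0.714, highest 1.58). In windows of 10 kb, both loci thus had a rise at the middle and, after a drop, raised contact again on the higher-coordinate side. The drop reached 0.314 at 23 kb, beside 2 windows without signal, at Il1a and 1.02 at 17 kb at Tnfaip3. The drop at Il1a was not seen in windows of 20 kb, where scaled contact declined from 1.73 at 20 kb to 1.57 at 25 kb and 1.45 at 35 kb. Tnfaip3 kept its second rise at that width, with 1.28 at 15 kb and 1.92 at 35 kb. From 26 to 46 kb the median in windows of 10 kb was higher at Tnfaip3 than at Il1a.

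The distance slope, fitted by least squares to log2 contact against log2 distance at 10 to 500 kb, was -0.0661 at Il1a and -0.106 at Tnfaip3. A doubling of distance multiplied the deposited signal by 0.955 at Il1a and by 0.929 at Tnfaip3, so its loss per doubling was small at both loci. A constant tied to the deposited values, the offset described below, was 0.351 times the far level at Il1a and 0.0949 times at Tnfaip3. The effect of that offset on the slopes was not tested. The slope was shallower at Il1a in 48 of 48 window widths from 2 to 49 kb, ranging from -0.0847 to -0.0393, against -0.130 to -0.0912 at Tnfaip3. The widths come from the same reads and are no replicates. The gap between the slopes nearly closed at 10 to 200 kb, where they were -0.127 at Il1a and -0.141 at Tnfaip3. A decreasing fit of contact on distance, called the expectation below, fell under 1.2 times the far level at 21 kb for Il1a and at 66 kb for Tnfaip3. It fell under 1.1 times at 96 kb for Il1a and at 88 kb for Tnfaip3. The Il1a distance of 21 kb is where low windows begin beside the empty ones at 24 and 25 kb. Scaled contact there was 0.381 at 21 kb and 0.314 at 23 kb, and whether these windows set that distance was not tested. In the macrophage-type libraries the slopes were -0.0829 at Il1a and -0.110 at Tnfaip3, with Il1a shallower in 36 of 48 widths.

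The order of the 2 loci close to the middle changed with the width of the window. In windows of 2 kb the median within 10 kb was 1.18 at Il1a and 1.52 at Tnfaip3, and in windows of 5 kb it was 1.47 and 1.66. In windows of 20 kb it was 2.11 and 1.76, and in windows of 49 kb 1.73 and 1.5. Il1a was the higher locus in 45 of 48 widths, the exceptions being 3 widths of 5 kb or less. Over the 48 widths the Il1a value ranged from 1.18 to 2.28 and the Tnfaip3 value from 1.43 to 1.83. At Il1a, the 2 kb windows at 8 and 9 kb (129161157 and 129162157) stood at 9.70 and 9.48 times the far level, while the median of the 2 kb windows around the middle was close to it. Wider windows average these high fragment ends with their neighbours, and the window at 8 kb read 3.47 in a width of 5 kb and 2.39 in a width of 10 kb. In macrophage-type cells Il1a was the higher locus in 46 of 48 widths, with 2.43 against 1.51 in windows of 10 kb.

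**Figure D3:**
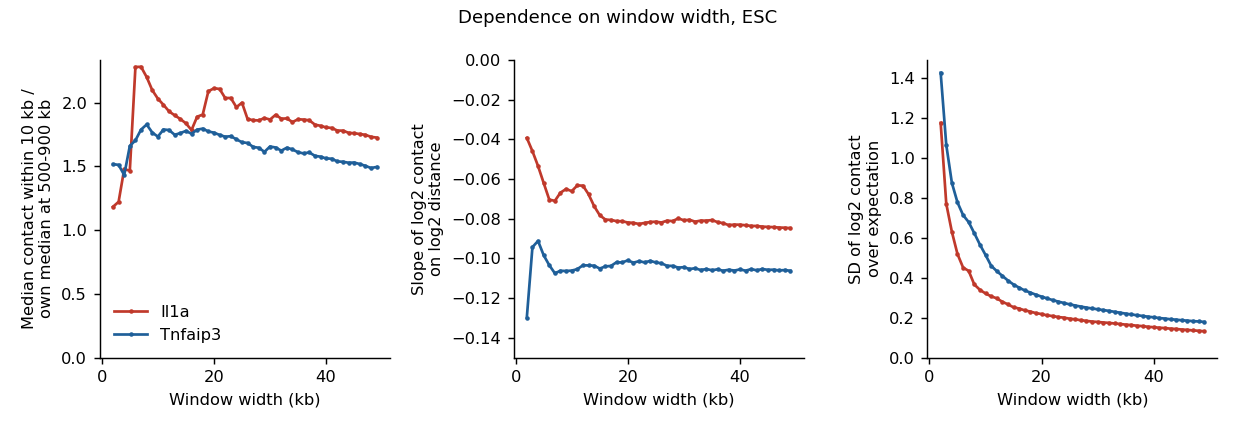
The median scaled contact within 10 kb of the middle (left), the distance slope at 10 to 500 kb (centre) and the SD of log2 contact over expectation at 10 to 500 kb (right), against window width in kb, for the 2 ESC libraries. The left curves cross at narrow widths, where Il1a has 1.18 and Tnfaip3 1.52 in windows of 2 kb, while the centre and right curves keep their order in all 48 widths.

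Summed over 10 to 500 kb, contact was close to even between the sides at both loci. The higher-coordinate side held 51.4% of the contact at Il1a, over 489 distances measured on both sides, and 52.3% at Tnfaip3, over 488 distances. The share was above 50% in 48 of 48 widths at both loci, from 50.5 to 51.6% at Il1a and from 50.9 to 52.5% at Tnfaip3. The higher-coordinate side had more contact than its mirror distance at 55% of distances at Il1a and 58.6% at Tnfaip3. In macrophage-type cells the shares were 51% at Il1a and 53.4% at Tnfaip3. The lean to higher coordinates was thus small at both loci. The Il1a minus Tnfaip3 difference in ESC was -0.893 percentage points, and it was -1.77 at 20 to 500 kb and -1.42 with the median of each side.

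The lean was concentrated in different distance classes at the 2 loci. At Il1a it was largest at 10 to 25 kb, where the median was 2.39 on the higher-coordinate side and 1.17 on the lower, a ratio of 2.04. There 11 of 14 distances were higher on the higher-coordinate side, in windows that overlap. At the same distances Tnfaip3 leaned the other way, with 1.22 on the higher-coordinate side and 1.4 on the lower, and 5 of 15 distances were higher on the higher-coordinate side. At Tnfaip3 the largest lean was at 25 to 50 kb, with 1.68 on the higher-coordinate side and 0.944 on the lower, a ratio of 1.78, and 24 of 25 distances were higher on that side. Il1a had 1.33 and 1.19 there, a ratio of 1.11. The lower-coordinate side of Tnfaip3 was therefore slightly below the far level at 25 to 50 kb, while its other side was above it. At 50 to 100 kb the lower-coordinate side of Tnfaip3 stood higher again, at 1.07.

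Farther out, the loci were close in side balance in ESC windows of 10 kb. At 50 to 100 kb the higher-coordinate side exceeded the lower by a ratio of 1.18 at Il1a and 1.16 at Tnfaip3, and at 100 to 200 kb by 1.1 and 1.15. At 200 to 500 kb the ratios were 0.967 and 0.994. Over the widths, the ratio was larger at Tnfaip3 in 39 of 48 at 50 to 100 kb and in 34 of 48 at 100 to 200 kb. The 25 to 50 kb lean was larger at Tnfaip3 than at Il1a in 48 of 48 widths. The log2 side ratio ranged from 0.48 to 1.28 at Tnfaip3 and from 0.12 to 0.31 at Il1a. The 10 to 25 kb lean at Il1a was towards higher coordinates in 47 of 48 widths, whereas that at Tnfaip3 was so in 31 of 48. The opposite lean of Tnfaip3 at 10 to 25 kb was therefore not kept across widths. In macrophage-type cells the 25 to 50 kb ratio was 1.86 at Tnfaip3 and 1.13 at Il1a, and the 10 to 25 kb ratio was 1.16 at Il1a and 1.01 at Tnfaip3. Their 50 to 100 kb ratio was 0.989 at Il1a and 1.26 at Tnfaip3, and that at 100 to 200 kb 1.09 and 1.25.

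**Figure D4:**
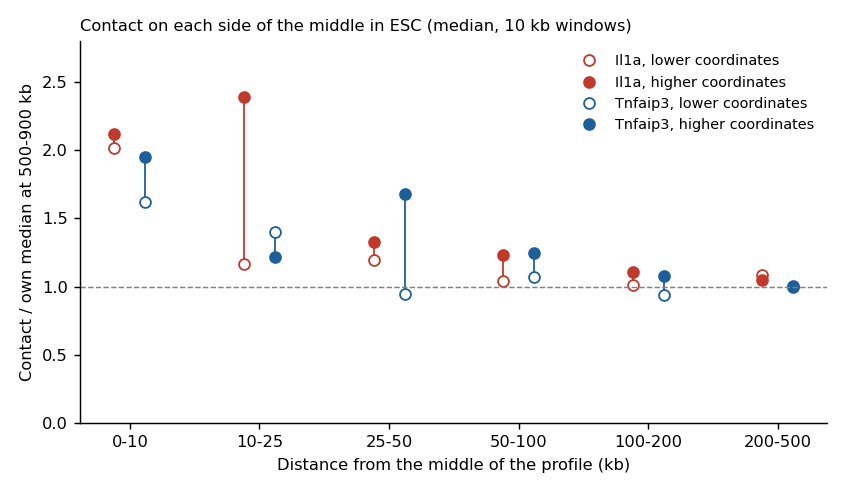
Median scaled contact on the lower-coordinate side (open circles) and the higher-coordinate side (filled circles) of the middle, by distance class in kb, over distances measured on both sides in windows of 10 kb; lines join the sides of 1 locus in 1 ESC library. Il1a opens widest at 10 to 25 kb (1.17 and 2.39), and Tnfaip3 at 25 to 50 kb (0.944 and 1.68).

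The side balance depended on where the zero of distance was placed. In the mean of a viewpoint's libraries, the top 2 kb window lay 8 kb above the middle at Il1a and 29 kb above it at Tnfaip3. The Tnfaip3 window at 29 kb was the highest of that mean and not of the ESC library alone. With distances counted from there, the log2 side ratio at 10 to 25 kb became -0.27 at Il1a and 0.30 at Tnfaip3, and that at 25 to 50 kb at Tnfaip3 became -0.26. The leans therefore describe where the high stretches lie relative to the middle, and the sources used here do not say which of the middle and this window is the viewpoint.

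In these libraries the Tnfaip3 profile was more uneven than the Il1a profile. Along 10 to 500 kb, the SD of log2 contact over expectation was 0.32 at Il1a (980 windows), a factor of 1.250, and 0.52 at Tnfaip3 (979 windows), a factor of 1.43. The central 95% of windows lay between 0.608 and 1.53 times expectation at Il1a and between 0.483 and 1.73 times at Tnfaip3. At 500 to 900 kb, where the distance decay had ended, the SD was 0.29 at Il1a and 0.40 at Tnfaip3. The larger SD of the Tnfaip3 library was thus not limited to the neighbourhood of its middle. The depth of the libraries is unknown, and its part in the SD was not tested. The SD was larger at Tnfaip3 in 48 of 48 widths, both at 10 to 500 kb and at 500 to 900 kb, and also in the macrophage-type libraries, with 0.25 at Il1a and 0.49 at Tnfaip3 in windows of 10 kb.

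A property of the deposited values moves with this difference. Each window value was midway between its bounds on a log scale once 1 constant, the offset, was added to all values of a library. This held with a tolerance of 1e-06 in 100% of the windows tested. The offset was 0.351 times the far level at Il1a and 0.0949 times at Tnfaip3. The median factor between a window value and its upper bound was 2.69 at Il1a and 5.70 at Tnfaip3, on signal plus offset, and the sources used here do not say what the bounds measure. With 0.351 times the far level added to both profiles, the SD was 0.24 at Il1a and 0.34 at Tnfaip3, so the order was the same and the gap smaller. The part of the offset in the deposited window means was not tested.

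In windows of 10 kb, departures from the expectation were also more frequent at Tnfaip3, an order that did not hold in every width. At Il1a, 29 of 980 windows at 10 to 500 kb (2.96%) were at least 1.5-fold over expectation and 45 windows (4.59%) at least 1.5-fold under it. At Tnfaip3, 82 of 979 windows (8.38%) were over and 120 windows (12.3%) under. At 500 to 900 kb the shares at least 1.5-fold over expectation were 0.249% at Il1a and 6.11% at Tnfaip3, and those under it 3.37% and 6.86%. Over the 48 widths, the windows over 1.5-fold were more numerous at Tnfaip3 in 23 and at Il1a in 4, with 21 ties. The maxima were more numerous at Tnfaip3 in 18 and at Il1a in 5, with 25 ties. Grouped into local maxima at least 20 kb apart, the windows over 1.5-fold made 6 maxima at Il1a and 15 at Tnfaip3. Of these, 5 of 6 at Il1a and 11 of 15 at Tnfaip3 lay on the higher-coordinate side, which held 49.9% of all windows at Il1a and 49.8% at Tnfaip3. More than 100 kb from the middle lay 4 of 6 and 12 of 15, against 81.6% and 81.7% of all windows, shares close to the background at Tnfaip3. At 2-fold there were 0 of 980 windows at Il1a and 4 of 979 at Tnfaip3 (0.409%), which made 0 and 3 maxima. Without windows whose central 5 kb had no signal, the maxima numbered 6 and 13 at 1.5-fold and 0 and 2 at 2-fold, Il1a first.

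The strongest Il1a maximum was the 10 kb window centred at 129166157, 13 kb above the middle, with a scaled contact of 4.00 and 1.98 times expectation. It lay within the high stretch beside the middle and was 1.65 times expectation in macrophages. In ESC windows of 5, 20 and 49 kb it stood at 1.39, 1.27 and 1.07 times. The next was at 128790157, at -363 kb, with a scaled contact of 1.84 and 1.73 times expectation. It stood at 1.67, 1.41 and 1.2 times in windows of 5, 20 and 49 kb. The maximum at 129645157, at 492 kb, had 1.65 times expectation, and 1.73, 1.43 and 1.2 times in those widths. These 2 distant Il1a windows were thus above expectation in narrow and wide windows alike. The maxima at 129273157 and 129224157, at 120 and 71 kb, had 1.63 and 1.53 times expectation. In windows of 5 kb they were below it, at 0.525 and 0.807 times.

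The strongest Tnfaip3 maximum was at 19494921, 287 kb above the middle, with a scaled contact of 2.51 and 2.54 times expectation. The one at 19262921, at 55 kb, had the same scaled contact of 2.51 and 2.09 times expectation. The 5 kb windows at both places had no signal, and the 10 kb windows at 52 to 54 kb were empty. In windows of 20 kb they were 1.3 and 1.07 times expectation. The maximum at 19626921, at 419 kb, had 2.05 times expectation, with 1.29, 1.55 and 1.14 times in windows of 5, 20 and 49 kb. That at 19514921, at 307 kb, had 1.90 times, and 1.83 and 1.16 times in windows of 5 and 20 kb. The maximum at 19240921, at 33 kb, lay in the second rise described above, with a scaled contact of 2.36 and 1.88 times expectation, and 1.39 and 1.27 times in windows of 5 and 20 kb.

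The lower ends of the profiles differed as well. The lowest Il1a minimum was at 129176157, at 23 kb, with a scaled contact of 0.314 beside the empty windows at 24 and 25 kb. Its 5 kb window had no signal, and in windows of 20 and 49 kb it was above expectation, at 1.16 and 1.07 times. The next were at 128721157 and 129053157, at -432 and -100 kb, with 0.411 and 0.445 times expectation. The lowest Tnfaip3 minimum was at 19454921, at 247 kb, where scaled contact was 0.0156 in ESC and, in the RAW 264.7 library, 0.0237. In windows of 20 kb it was at 0.648 times expectation. The other 2 Tnfaip3 minima, at 18803921 and 19684921, had 0.283 and 0.369 times expectation.

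**Figure D5:**
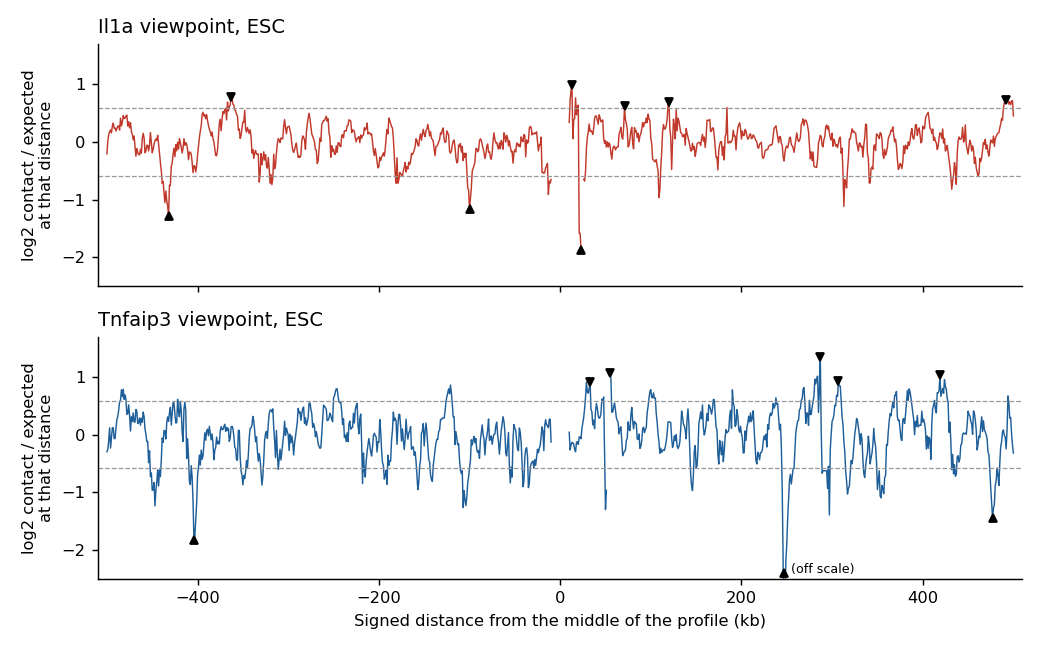
Log2 of contact over the contact expected at that distance, windows of 10 kb at 10 to 500 kb on both sides of the middle, for Il1a (top) and Tnfaip3 (bottom) in ESC, 1 library each. Dashed lines mark 1.5-fold over and under expectation, and triangles the 5 highest maxima and 3 lowest minima of each locus; the Tnfaip3 minimum at 247 kb lies below the axis, at a log2 value of -5.99.

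The maxima of ESC were also above expectation in the other library of the same viewpoint. All 6 Il1a maxima of ESC were above expectation in macrophages, from 1.16 to 1.65 times, and 1 of 6 reached 1.5-fold there. All 15 Tnfaip3 maxima of ESC were above expectation in RAW 264.7 cells, from 1.32 to 2.37 times, and 11 of 15 reached 1.5-fold. Of all windows, 54.5% in macrophages and 52.3% in RAW 264.7 cells were above expectation, and 0.510% and 7.05% reached 1.5-fold. Over windows at 10 to 500 kb, contact over expectation had a Spearman coefficient of 0.11 between Il1a and Tnfaip3 in ESC (977 windows at equal signed distance). It was 0.862 between the cell types at Il1a (980 windows) and 0.926 at Tnfaip3 (979 windows). These coefficients run across overlapping windows and are descriptions only. Libraries of 1 viewpoint share the fragment layout of their locus, whereas the 2 viewpoints share neither sequence nor fragments.

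At equal signed distance the typical difference between the loci was small against its spread. The median log2 ratio of Il1a over Tnfaip3 was 0.05 over 977 distances, with quartiles of -0.27 and 0.44, and Il1a was higher at 53.5% of distances. In macrophage-type cells the median was -0.03. Il1a was at least 1.5-fold higher over 183 kb (18.7% of distances) and Tnfaip3 over 99 kb (10.1%). The lengths were 258 and 270 kb in windows of 2 kb, 55 and 45 kb at 10 to 200 kb with a median log2 ratio of -0.0022, and 53 and 324 kb on the deposited scale, Il1a first, so the order of the loci depended on width and scaling. Equal distance is not equal sequence, so these lengths compare the shapes of the profiles only.

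The longest stretches with higher Il1a contact fell at troughs of the Tnfaip3 profile. At 245 to 257 kb the mean scaled contact was 1.00 at Il1a and 0.397 at Tnfaip3, at 349 to 359 kb 1.07 and 0.541, and at 475 to 485 kb 1.05 and 0.512. Il1a was close to its far level in all 3 stretches. Tnfaip3 was higher at -437 to -430 kb, with 1.12 against 0.513, a trough of the Il1a profile. It was also higher at 26 to 33 kb, with 2.03 against 1.07, and over 8 kb from 100 kb outwards, with 1.64 against 0.904. The stretch at 26 to 33 kb belongs to the second rise of the Tnfaip3 profile above its middle. In macrophage-type cells the mean log2 ratio had the same sign in all 6 stretches. The stretches were picked in ESC, and libraries of 1 viewpoint share their fragment layout, so this is a description only.

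The single highest 2 kb windows were differently placed. At Il1a the highest 4 lay at 8, 9, 16 and 15 kb, with deposited contact of 1, 0.977, 0.495 and 0.430 of the highest window. At Tnfaip3 the highest was at 19124921, at -83 kb, followed by 19236921 at 29 kb with 0.987, 19208921 at 1 kb with 0.539 and 19251921 at 44 kb with 0.507. The window at -83 kb stood at 7.58 times the far level in a width of 2 kb, 1.87 times in 5 kb and 0.885 times in 10 kb. The windows at 29 kb at Tnfaip3 and at 8 kb at Il1a fell likewise between widths of 2 and 5 kb, to 2.02 and 3.47 times, but stood at 2.36 and 2.39 times in 10 kb. Of the 20 highest 2 kb windows, 6 lay within 25 kb of the middle at Il1a and 3 at Tnfaip3, and 9 lay within 100 kb at each locus. Neighbouring 2 kb windows overlap, so the Il1a windows at 8 and 9 kb are not separate, nor are those at 15 and 16 kb. Windows within 25 kb made up 2.25% of the windows with signal at Il1a and 2.65% at Tnfaip3, and windows within 100 kb 9.81% and 9.83%. Of the 100 highest, 6 at Il1a and 5 at Tnfaip3 lay within 25 kb, and 15 and 20 within 100 kb.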

How the data were processed

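Contact signal from 4C-seq was analysed in the 2 ESC libraries, 1 per viewpoint, and the 2 macrophage-type libraries gave values set beside them. Genome build mm9 and the programs CASAVA, version 1.4, and Bowtie2, version 2.0.1, are named in the submitters' processing notes without their role; the smoothing program is not stated there. The deposited signal has the top window of each library at 1, in 48 widths from 2 to 49 kb with a central value and 2 bounds each, as read from the values. Some of the deposited lower bounds are below 0. No counting interval was given, because depth is unknown.

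Central values were divided by the own median at 500 to 900 kb. The expectation was an isotonic, decreasing fit to log2 contact over distance from 10 kb outwards, with both sides pooled. Regions named were the 5 highest maxima and 3 lowest minima over expectation at 10 to 500 kb, at least 20 kb apart, the highest 2 kb windows, and the 3 longest runs at least 1.5-fold higher at either locus. The libraries, settings and lists were chosen with earlier results of these data known. Alternatives covered width, reference point, range, scaling, pseudocounts, expectation and thresholds. The functions, run in Python 3.11.15 with scikit-learn 1.9.0, NumPy 2.4.6 and SciPy 1.17.1, were tested on simulated data, and figures were drawn in Matplotlib 3.10.9.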

Additional observations from a re-analysis of the deposited data

Results flagged for a closer look

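The log2 ratio of contact on the higher-coordinate side over the lower-coordinate side at 10 to 25 kb had opposite signs at the loci, at 1.03 for Il1a in ESC and -0.20 for Tnfaip3 in ESC. With 1 library each this difference was not tested, and the Tnfaip3 sign was not kept across window widths. The Il1a ratio was -0.078 in windows of 2 kb. With distances from the highest 2 kb window of the mean of a viewpoint's libraries, both signs turned, to -0.27 at Il1a and 0.30 at Tnfaip3.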

How the results depend on the processing

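With 1 library per locus the alternatives show dependence on processing only, and no replicate could be left out. No paired analysis was possible because each group has 1 library. An alternative value counted as the same if it kept its sign and lay within 1.5 times of the main value. For shares the limit was 5 percentage points, and for log2 ratios it was 1.5 times in the ratio before the log. Of 261 alternative values, 196 stayed within these limits. These include values that the setting could not change, such as slopes under another scaling and the median log2 ratio at a 2-fold threshold. For shares, the tolerance was wider than their distance from an even split at either locus. For small log2 ratios it was wider than the value itself. The Il1a log2 side ratio at 25 to 50 kb, 0.15 in windows of 10 kb, thus counted as the same at 0.31 in windows of 2 kb. Of the rest, 53 moved beyond these limits and 12 changed sign. The cause was not tested except where the range, width or threshold itself changes what is counted. The interquartile range, the Il1a offset added to both libraries and leaving out windows with an empty 5 kb centre were chosen after seeing the data. No such value moved or changed sign. The interquartile ranges, 0.36 at Il1a and 0.57 at Tnfaip3, were set against SDs, another measure of spread. Only the order of the loci can be compared there, and it was the same.

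For windows of 2, 5, 20 and 49 kb in that order, the SD over expectation was 1.18, 0.52, 0.22 and 0.13 at Il1a and 1.43, 0.78, 0.31 and 0.18 at Tnfaip3. The maxima at 1.5-fold numbered 37, 18, 3 and 0 at Il1a and 33, 27, 3 and 0 at Tnfaip3. In windows of 2 kb the Il1a slope was -0.0393, contact within 10 kb at Il1a 1.18, its log2 ratio over Tnfaip3 -0.36, the median log2 ratio at equal distance -0.022, and the Il1a log2 side ratio at 10 to 25 kb -0.078; Tnfaip3 was at least 1.5-fold higher over 270 kb. In windows of 5 kb that length was 172 kb and the log2 ratio within 10 kb -0.18. At the 20 kb width the lengths were 94 kb for Il1a and 21 kb for Tnfaip3, and at 49 kb they were 22 kb and 0 kb. The Tnfaip3 log2 side ratio at 10 to 25 kb turned to 0.028 at the 20 kb width and 0.28 at the 49 kb width, where the Il1a ratio was 0.34.

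Counted from the highest 2 kb window of the mean of a viewpoint's ESC and macrophage-type libraries, the log2 side ratio at 10 to 25 kb was -0.27 at Il1a and 0.30 at Tnfaip3, and that at 25 to 50 kb at Tnfaip3 -0.26. Up to 200 kb the Il1a slope was -0.127, the lengths 55 kb for Il1a and 45 kb for Tnfaip3, the median log2 ratio -0.0022, and the Tnfaip3 maxima numbered 6. From 20 kb the Il1a slope was -0.0317, and with windows at 0 kept -0.0359. As deposited, contact within 10 kb was 0.207 at Il1a and 0.236 at Tnfaip3, a log2 ratio of -0.19, the median log2 ratio at equal distance was -0.37, and the lengths were 53 kb for Il1a and 324 kb for Tnfaip3. At 2-fold the lengths were 55 kb and 24 kb. An expectation per side left 3 Il1a maxima, and the range to 900 kb gave 25 Tnfaip3 maxima.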
